A study of Homo sapiens with 6 samples.

Results

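Transcripts of 10 genes that write or erase N6-methyladenosine (m6A) were measured by RNA-seq in K562 cells, an established human line of chronic myeloid leukemia in blast phase. The genes were taken by name: the methyltransferase pair METTL3 and METTL14, the regulatory subunits WTAP, VIRMA, RBM15, RBM15B, ZC3H13 and CBLL1, and the demethylases FTO and ALKBH5. Each matched a single Ensembl identifier, so that 10 of the 61661 identifiers in the table of counts were examined. All 10 passed the filter on low counts, and no library held fewer than 375 reads of any of them. The 6 libraries fell into 3 groups of 2: shCTR (labelled wild type), shMETTL3 (METTL3 knockdown) and shMETTL14 (METTL14 knockdown). Per the study's methods, the shCTR and shMETTL3 lines were made with lentivirus that carries a hairpin, GFP and puromycin resistance, with a nonsense hairpin in the control, and were selected with puromycin. These are stable lines with 1 METTL3 hairpin; how the shMETTL14 line was made is not given in the sources used here. Nothing states that the libraries of a group came from separate cultures, so the p-values measure only the spread between these libraries, which may be technical.

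m6A is the most common internal modification of mammalian mRNA. METTL3 carries the catalytic site and METTL14, which has no activity of its own, holds the RNA and stabilises METTL3. WTAP brings this pair to nuclear speckles, VIRMA is the scaffold of the regulatory part, RBM15 and its paralog RBM15B bind RNA, ZC3H13 keeps the complex in the nucleus, and CBLL1 (HAKAI) is an E3 ubiquitin ligase that joins it. FTO and ALKBH5 are iron-dependent dioxygenases that remove the mark, and FTO also acts on the related cap-adjacent mark m6Am. METTL3 is known to sustain the growth of myeloid leukemia cells.

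The METTL3 hairpin and the places in the 10 genes that hold its seed complement are shown first, since they show which of these transcripts share sequence with it. The sense stem of 21 nt equals the target in the METTL3 mRNA, and the antisense stem is the strand meant to guide silencing. Capitals mark bases 2 to 8 of the antisense stem, the seed, and in the other lines the 7 letters complementary to it (CCATTGT).
METTL3 shRNA, antisense stem: aACAATGGattgttccttggc
METTL3 shRNA, sense stem and target: gccaaggaacaatCCATTGTt
WTAP, first site: tcaacgtgtatttCCATTGTa
WTAP, second site: gggagcagctgctCCATTGTg
FTO, only site: tgaggatgctgtgCCATTGTg
The whole stem was found in 1 gene, METTL3 (ENSG00000165819, minus strand), at chr14:21501844-21501864 of GRCh38, in the coding part of exon 4 of 11. For each gene, the GENCODE 29 transcript with the longest coding sequence was searched for CCATTGT on the mRNA strand. It was present in WTAP at chr6:159726190-159726210 and chr6:159727199-159727219, both in the 5′ UTR in exon 1 of 8 on the plus strand, and in FTO at chr16:53826232-53826252, in the coding part of exon 3 of 11 on the plus strand. The other 7 genes did not hold these letters in the transcript searched. Of 19922 protein-coding genes, 18.3% held them, so their presence in WTAP and FTO is a description only. Among the 10 genes, the best ungapped alignment to the stem outside METTL3 matched 12 to 14 of its 21 bases in the transcript searched. Genes beyond the 10 were not aligned. The sequence of the METTL14 hairpin is not given in the sources used here, so its matches in the 10 genes were not searched.

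Library totals ran from 19292574 to 20115304 counts. Of 10 markers fixed for K562, all were detected, GATA1 and HBE1 among them, and their summed level was 1250 to 1370 CPM (read counts scaled to a common library size) in shCTR, 1510 to 1650 CPM in shMETTL3 and 1430 CPM in both shMETTL14 libraries. HBG1 was the lowest, at 0.509 to 1.10 CPM. The globins HBG2 and HBZ were also low, at 6.53 to 6.98 and 5.25 to 12.9 CPM, beside 198 to 433 CPM for HBE1. Of 16 markers of other cell types, 7 had more than 3 reads in a library and 3 were at 0 in every library (KRT5, UPK3B and PAX2); their sum of 63.6 to 64.1 CPM in shCTR and 51.9 to 53.6 CPM in the knockdowns came mainly from EPCAM, at 36.5 to 54.8 CPM. The part of these marker differences in the results below was not tested. CPM were scaled by TMM, a method that takes most genes as unchanged. In such bulk samples, fewer cells that express a gene and less RNA of it per cell cannot be told apart.

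METTL3, the target of the hairpin, was lower in shMETTL3 cells. Its level was 90.5 and 90.3 CPM in the shCTR libraries, 52.5 and 46.7 CPM in the shMETTL3 libraries, and 88.1 and 76.4 CPM in the shMETTL14 libraries. Both shMETTL3 libraries lay far below the other 4, and the shMETTL14 libraries lay just under the shCTR libraries. The fall in shMETTL3 cells was to 0.549 of the shCTR level (95% interval 0.490 to 0.615), a log2 fold change of -0.87 (edgeR quasi-likelihood adjusted p = 3.44e-07, Benjamini-Hochberg over 17686 genes). Intervals here and below are not adjusted for the number of genes. In that comparison 97 other genes that passed the test fell by at least as much, so the intended target was not the gene that moved most. In shMETTL14 cells the METTL3 log2 fold change was -0.14 (interval -0.29 to 0.02, edgeR adjusted p = 0.323). That value was -0.24 without shMETTL14 library 1 and -0.04 without shMETTL14 library 2. METTL3 lies at chr14:21498133-21511375, and 388 of its exon bases (6.58%) are exon of TOX4 on the opposite strand, a gene that did not pass the test in either knockdown (log2 fold changes -0.13 and -0.11).

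METTL14, the RNA-holding partner (chr4:118685368-118715433, plus strand), was lower in shMETTL14 cells. It had 33.2 and 34.2 CPM in shCTR, 38.3 and 35.4 CPM in shMETTL3, and 19.1 and 20.6 CPM in shMETTL14 cells. The shMETTL14 libraries were the lowest and did not overlap the others, and the shMETTL3 libraries were the highest. The level in shMETTL14 cells was 0.589 of that in shCTR cells (interval 0.518 to 0.670), a log2 fold change of -0.76 (edgeR adjusted p = 1.40e-05), and 92 other genes past the test fell by at least as much. In shMETTL3 cells the METTL14 value was 0.13 on the log2 scale (interval -0.05 to 0.30, edgeR adjusted p = 0.320), which leaves room for a rise of up to 1.23-fold and for a fall to 0.969 of the control.

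The proportion of both subunits' mRNAs differed between the lines. Within a library, METTL3 reads per kilobase of merged exons were 3.17 and 3.07 times those of METTL14 in shCTR cells. The ratio was 1.60 and 1.54 in the shMETTL3 libraries, while the shMETTL14 libraries had ratios of 5.37 and 4.32. The 3 groups did not overlap, with shMETTL14 libraries the furthest apart from each other. The size of the ratio depends on the gene length used: with each gene's longest transcript it was 7.20 and 6.97 in shCTR cells, while the order of the groups stayed as above. These ratios are descriptions of mRNA levels and carry no test.

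**Figure D1:**
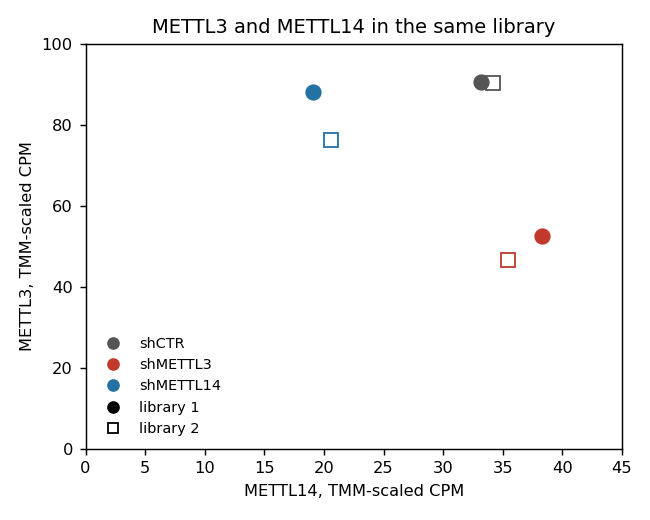
METTL3 (y axis) against METTL14 (x axis), both in TMM-scaled CPM, in each of the 6 libraries (filled circles library 1, open squares library 2; grey shCTR, red shMETTL3, blue shMETTL14). The shMETTL3 libraries sit low on the METTL3 axis at 52.5 and 46.7 CPM, and the shMETTL14 libraries sit to the left on the METTL14 axis at 19.1 and 20.6 CPM.

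In shMETTL3 cells against shCTR cells, 2 of the 10 genes passed the test: METTL3 itself, lower, and ALKBH5, higher. Of all 17686 genes tested, 16.5% passed, 8.73% higher and 7.73% lower, so that 2 of 10 is a share near that of all genes. The median log2 fold change over the 10 genes was 0.08, beside 0.00 over all genes. In shMETTL14 cells, 2 of the 10 passed, METTL14 lower and RBM15B higher, against 6.69% of all genes (3.43% higher and 3.26% lower). The median there was 0.04, beside 0.00. Both comparisons share the shCTR libraries. The intervals of the 8 genes not targeted in either line reached at most 0.47 from 0 on the log2 scale.

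**Figure D2:**
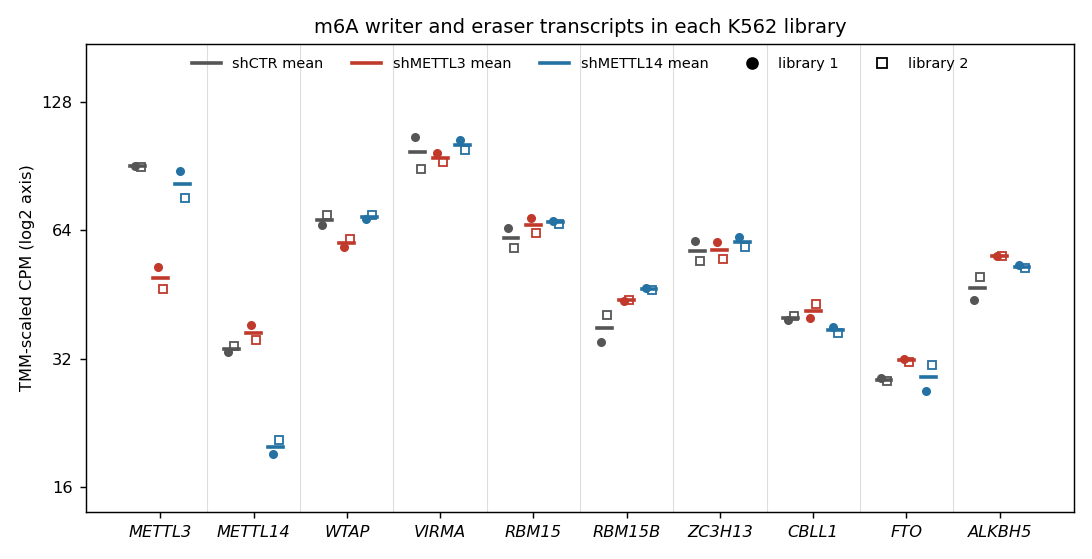
TMM-scaled CPM (log2 axis) of the 10 genes in each library, with a bar at the mean of each group's 2 libraries (filled circles library 1, open squares library 2; grey shCTR, red shMETTL3, blue shMETTL14). Only METTL3 in shMETTL3 cells and METTL14 in shMETTL14 cells stand far from their other groups; ALKBH5 and RBM15B are lowest in the shCTR libraries.

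WTAP did not pass the test in either knockdown. It had 65.9 and 69.4 CPM in shCTR, 58.5 and 61.0 CPM in shMETTL3, and 67.9 and 69.7 CPM in shMETTL14 cells. The shMETTL3 libraries were the lowest and overlapped neither of the other groups. Its log2 fold change was -0.18 in shMETTL3 cells (interval -0.32 to -0.04, edgeR adjusted p = 0.0808) and 0.02 in shMETTL14 cells (interval -0.12 to 0.17, edgeR adjusted p = 0.882). Besides METTL3, WTAP and FTO hold the seed complement shown above. FTO stood at 0.15 on the log2 scale in shMETTL3 cells, and an effect of these sites was not tested. WTAP shares 437 exon bases, 6.81% of its merged exons, with SOD2 annotations on the opposite strand. SOD2, the mitochondrial superoxide dismutase, stood at -0.16 and -0.18 on the log2 scale (edgeR adjusted p = 0.0853 and 0.101), and whether reads there were assigned by strand is not given in the sources used here.

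VIRMA and ZC3H13, the large scaffold and bridging subunits, did not pass. VIRMA ran from 89.1 to 106 CPM over the 6 libraries, and the shCTR pair took both ends of that range. ZC3H13 ran from 54.2 to 61.8 CPM, with every group overlapping the others. The log2 fold changes of VIRMA were -0.04 and 0.06 in shMETTL3 and shMETTL14 cells, with intervals within -0.20 to 0.21, and those of ZC3H13 were 0.01 and 0.07, within -0.15 to 0.23 (edgeR adjusted p from 0.647 to 0.976 over these 4 tests). For VIRMA these intervals allow levels from 0.870 to 1.16 of the control, and for ZC3H13 from 0.900 to 1.17.

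CBLL1 was at 39.4 and 40.3 CPM in shCTR, 39.8 and 43.1 CPM in shMETTL3, and 37.9 and 36.8 CPM in shMETTL14 cells. The shMETTL3 pair overlapped the control, and the shMETTL14 pair lay just below it. Neither value passed, with log2 fold changes of 0.06 and -0.09 (edgeR adjusted p = 0.674 and 0.540). CBLL1 shares 333 exon bases (6.08%) with CBLL1-AS1 on the opposite strand, which had 51 to 93 reads.

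RBM15, which is also known as a fusion partner in megakaryoblastic leukemia, had 64.8 and 58.3 CPM in shCTR, 68.4 and 63.2 CPM in shMETTL3, and 67.3 and 66.3 CPM in shMETTL14 cells. It overlapped the control in shMETTL3 cells and lay just above it in shMETTL14 cells, without passing the test (log2 fold changes 0.10 and 0.12, edgeR adjusted p = 0.397 and 0.382). Its paralog RBM15B had 35.0 and 40.6 CPM in shCTR, 43.8 and 43.9 CPM in shMETTL3, and 46.8 and 46.3 CPM in shMETTL14 cells. All 4 knockdown libraries were above both shCTR libraries, which stood further from each other than any knockdown pair. RBM15B rose in shMETTL14 cells by 1.23-fold (interval 1.10 to 1.38), a log2 fold change of 0.30 (edgeR adjusted p = 0.0273). In shMETTL3 cells its log2 fold change was 0.22 (interval 0.05 to 0.38, edgeR adjusted p = 0.0740), and the direct comparison of both knockdowns gave -0.09 (interval -0.25 to 0.08, edgeR adjusted p = 0.552).

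RBM15B is a single-exon gene of 6641 nt at chr3:51391268-51397908 on the plus strand, and 1325 of these bases are also exon of DCAF1 on the opposite strand, the largest shared stretch among the 10 genes. DCAF1, a substrate receptor of an E3 ubiquitin ligase, had between 846 and 925 reads per library, with values against shCTR of -0.04 (shMETTL3) and 0.04 (shMETTL14) on the log2 scale (edgeR adjusted p = 0.743 and 0.824). Reads from the shared bases cannot be assigned to a gene without strand, so the RBM15B level is uncertain to that extent.

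ALKBH5 was the only other gene of the 10 to pass against shCTR. It had 44.0 and 49.8 CPM in shCTR, 55.7 CPM in each shMETTL3 library, and 53.1 and 52.2 CPM in shMETTL14 cells. Both knockdown pairs were close together and above the shCTR libraries, which differed by more. ALKBH5 rose in shMETTL3 cells by 1.19-fold (interval 1.07 to 1.32), a log2 fold change of 0.25 (edgeR adjusted p = 0.0264). In shMETTL14 cells the value was 0.17 (interval 0.01 to 0.32, edgeR adjusted p = 0.210), and the knockdowns differed from each other by 0.08 (interval -0.07 to 0.24, edgeR adjusted p = 0.539). A rise in shMETTL3 cells alone is therefore not shown. ALKBH5 lies at chr17:18183078-18209954 on the plus strand, and an antisense gene that shares 11.2% of its exon bases had at most 3 reads in a library.

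FTO, the second demethylase, had 28.8 and 28.4 CPM in shCTR. It had 32 and 31.5 CPM in the shMETTL3 libraries, and 26.9 and 31.0 CPM in the shMETTL14 libraries. The shMETTL3 pair lay above the control, and the shMETTL14 pair spanned it. Neither value passed: the log2 fold changes were 0.15 (interval -0.03 to 0.33, edgeR adjusted p = 0.268) and 0.02 (interval -0.17 to 0.20, edgeR adjusted p = 0.942).

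**Figure D3:**
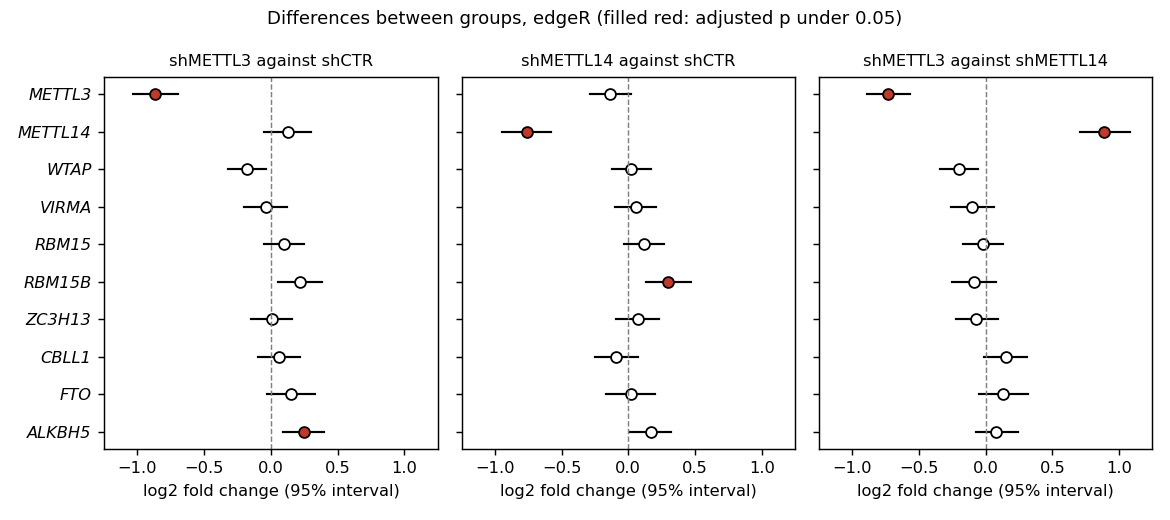
Log2 fold changes (x axis) of the 10 genes in the 3 comparisons, with 95% intervals from edgeR's fit as lines; filled red points have an adjusted p under 0.05. Each panel holds 2 filled points: METTL3 and ALKBH5, METTL14 and RBM15B, and METTL3 and METTL14.

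The ALKBH5 and RBM15B calls rested on a small margin and on the control libraries. In both genes shCTR library 1 was the lowest of all 6. Without it, ALKBH5 in shMETTL3 cells was at 0.16 (edgeR adjusted p = 0.174) and RBM15B in shMETTL14 cells at 0.20 (edgeR adjusted p = 0.175). Without shCTR library 2, the values were 0.34 and 0.41, both past the threshold. Leaving out any of the 4 knockdown libraries kept the values at 0.25 and at 0.29 to 0.31 and ended both calls, with edgeR adjusted p of 0.0538 to 0.157 for ALKBH5 and 0.0524 to 0.238 for RBM15B. DESeq2 gave adjusted p of 0.0746 and 0.0672 with all libraries, and the fit without the filter on low counts 0.0705 and 0.0753. The fit of the compared groups alone kept RBM15B (0.0431) and lost ALKBH5 (0.0528). Both genes, and RBM15, also have the highest GC content of the 10, at 54.9%, 55.9% and 54.5% of the longest transcript, beside 38.4% to 46.5% in the other 7. After removal of a smooth GC and length trend from every library, ALKBH5 in shMETTL3 cells was at 0.19 (edgeR adjusted p = 0.0311), RBM15B in shMETTL14 cells at 0.26 (edgeR adjusted p = 0.0229), and RBM15B in shMETTL3 cells at 0.10. When counts were scaled by library size only, RBM15B passed in shMETTL3 cells too, at 0.27 (edgeR adjusted p = 0.0258). That scaling also turned the calls over all genes toward higher values in shMETTL3 cells, to 12.2% higher and 4.85% lower, and in shMETTL14 cells to 4.20% and 2.50%.

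**Figure D4:**
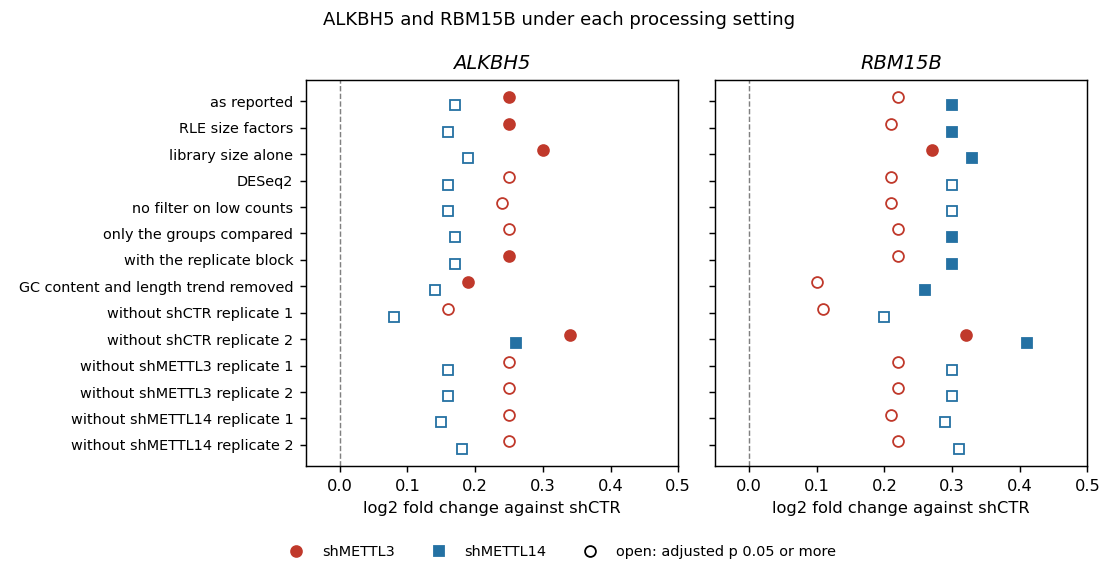
Log2 fold changes of ALKBH5 and RBM15B against shCTR (x axis) under each processing setting (y axis), red circles shMETTL3 and blue squares shMETTL14, filled where the adjusted p was under 0.05. Every value lies above 0, from 0.08 to 0.34 for ALKBH5 and from 0.10 to 0.41 for RBM15B, and the filled state changes between settings.

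In the direct comparison of both knockdowns, 2 of the 10 genes passed the test, the 2 targets, against 12.1% of all genes (6.65% higher and 5.49% lower in shMETTL3 cells). The METTL3 level of shMETTL3 cells was 0.603 of that in shMETTL14 cells (log2 fold change -0.73, interval -0.89 to -0.57, edgeR adjusted p = 2.56e-06). METTL14 was higher, by 1.86-fold (log2 fold change 0.89, interval 0.71 to 1.08, edgeR adjusted p = 7.81e-07). The next gene in order was WTAP, at -0.20 (interval -0.34 to -0.06, edgeR adjusted p = 0.0578), with both shMETTL3 libraries below both shMETTL14 libraries. WTAP passed under some settings, such as a fit of the 4 libraries compared (edgeR adjusted p = 0.0206). The median over the 10 genes was -0.04, beside 0.00 over all genes.

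Levels were compared between genes as CPM per kilobase of merged exons. In shCTR cells METTL3 stood first at 15.3 ± 0.0266 (SD, n = 2), ALKBH5 the second at 14.7 ± 1.29 and RBM15 the third at 13.2 ± 0.981, and neighbours among these 3 overlapped. WTAP at 10.5, VIRMA at 9.05 and CBLL1 at 7.27 followed, each apart from the next. RBM15B at 5.69 and ZC3H13 at 5.58 overlapped each other, METTL14 was the ninth at 4.91, and FTO was last at 1.34 ± 0.0159, apart from METTL14. In shMETTL3 cells METTL3 was the fifth at 8.42 ± 0.688, overlapping VIRMA at 8.80, and ALKBH5 was first at 17.5. In shMETTL14 cells METTL3 was the third at 14, overlapping RBM15 at 14.3, and METTL14 was the ninth at 2.89, still above FTO at 1.35. FTO was thus the least abundant of the 10 on this scale in all 3 lines. Its merged exons cover 21379 bases and its longest transcript 11766 nt, beside 2889 nt for the transcript with its longest coding sequence. METTL14, its neighbour in the order, has 6669 nt in its own such transcript. Mean levels in shCTR cells were 28.6 CPM for FTO and 33.7 CPM for METTL14. They were 31.7 and 36.8 CPM in shMETTL3 cells, and 28.9 and 19.8 CPM in shMETTL14 cells. By the length of these transcripts FTO would stand above METTL14 in every group, so its last place rests on the lengths used. The full order by that length was not computed. The order depends on the length chosen, since annotated exons that the cells may not use add to it: with the longest transcript, 4 of the 10 genes kept their place in shCTR cells, METTL3 (35.8) and FTO (2.43) still at the ends. In shMETTL3 cells 5 genes and in shMETTL14 cells 3 genes kept theirs, and METTL3 then stood at 19.7, just under ALKBH5 at 20.3, in shMETTL3 cells and first at 32.6, above ALKBH5 at 19.2, in shMETTL14 cells. The places of METTL3 in the knockdowns therefore depend on the length used.

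The genes whose levels over the 6 libraries were most like METTL3's, among 9811 genes with a mean of at least 10 CPM, were PRDX1, TOMM34 and EIF2B4, with Pearson's r of 0.998, 0.995 and 0.994 on log2 CPM. PRDX1, a peroxiredoxin, went from 236 and 232 CPM in shCTR to 190 and 182 CPM in shMETTL3 and 230 and 219 CPM in shMETTL14 cells, a smaller relative fall than that of METTL3. For METTL14 they were REXO4, STK38L and SBDSP1, with r of 0.995, 0.993 and 0.990. STK38L, a kinase of the NDR family, had 34.4 and 33.0 CPM in shCTR, 37.1 and 36.5 CPM in shMETTL3 and 21.7 and 23.7 CPM in shMETTL14 cells. SBDSP1 is a pseudogene of SBDS and its reads may be shared with it. With 6 libraries in 3 groups and this many genes, such values are found by choosing the highest, and they are given as a description only.

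Of 30 other genes of the m6A pathway, all tested, 5 fell and 0 rose in shMETTL3 cells, with a median log2 fold change of -0.06 beside 0.00 over all genes. Of all genes 16.5% passed there, 8.73% higher and 7.73% lower. The share of 5 in 30 is near that of all genes in either direction and is no result about the list. All 5 were lower, a larger share than the 7.73% of all genes, and that difference was not tested. A further 3 had an unadjusted p under 0.05, making 8 in all by edgeR. The largest fall was in MAT2A, which makes S-adenosylmethionine, the methyl donor of METTL3. It went from 709 and 646 CPM in shCTR to 539 and 510 CPM in shMETTL3 cells, and stayed at 671 and 645 CPM in shMETTL14 cells. The shMETTL3 libraries lay below the other 4. Its log2 fold change was -0.37 in shMETTL3 cells (standard error 0.0593, edgeR adjusted p = 2.72e-04), -0.04 in shMETTL14 cells (edgeR adjusted p = 0.748), and -0.33 between the knockdowns (edgeR adjusted p = 8.37e-04). MAT2A and HNRNPC passed against shCTR under all 13 alternatives run. The count of 5 went to 2 without either shMETTL3 library and to 8 without shCTR library 2, the GC and length correction gave 6 lower and 2 higher, and scaling by library size only gave 4 lower and 1 higher, so that the absence of rises depends on both choices.

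Among the readers, the proteins that bind the mark or RNA opened by it, 3 of 14 fell in shMETTL3 cells and 0 rose, beside 7.73% lower and 8.73% higher among all genes, a difference that was not tested. These were the nuclear proteins HNRNPC (878 CPM in shCTR and 730 CPM in shMETTL3 cells on average, log2 fold change -0.27, edgeR adjusted p = 0.00182), RBMX (603 and 517 CPM, -0.22, edgeR adjusted p = 0.00928) and HNRNPA2B1 (1380 and 1220 CPM, -0.17, edgeR adjusted p = 0.0324), the last named after its value was seen. HNRNPA2B1 lost its call with library size alone (-0.12, edgeR adjusted p = 0.144), with the GC and length correction (-0.12, 0.0666), without shCTR library 1 (0.0956) and without either shMETTL3 library (0.184 and 0.228). RBMX lost it without either shMETTL3 library (0.0548 and 0.172). None of the YTH family proteins YTHDF1 to YTHDF3, YTHDC1 and YTHDC2 passed there. RBMX has processed copies in the genome, so its count is uncertain. METTL5, which methylates ribosomal RNA, was the fifth gene, at 97.1 CPM in shCTR and 81.0 CPM in shMETTL3 cells (log2 fold change -0.26, edgeR adjusted p = 0.00863), and its value with the GC and length correction was -0.12 (edgeR adjusted p = 0.133). Without shMETTL3 library 1 or 2 its edgeR adjusted p was 0.121 or 0.0506. All 7 other AlkB homologs tested, relatives of ALKBH5, failed the test, with log2 fold changes from -0.17 to 0.19.

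In shMETTL14 cells, 0 of these 30 genes passed edgeR's test, 6 had an unadjusted p under 0.05, and DESeq2 called 1. Among all genes 6.69% passed in that comparison. Values ran from -0.23 to 0.20 on the log2 scale, with a median of -0.07. RBMX was nearest to the threshold, at -0.18 (edgeR adjusted p = 0.0512), and its value between the knockdowns was -0.04 (edgeR adjusted p = 0.730). Between the knockdowns, 3 of the 30 passed, a share near the 12.1% of all genes: MAT2A, given above, METTL4, an adenine methyltransferase, and YTHDF1, a cytoplasmic reader. METTL4 was at 44.1 and 47.3 CPM in shMETTL3 and 33.4 and 35.9 CPM in shMETTL14 cells, with shCTR between them at 42.3 and 38.5 CPM. Its log2 difference was 0.40 (edgeR adjusted p = 0.00214). YTHDF1 was at 68.9 and 70.3 CPM in shMETTL3 and 54.5 and 61.2 CPM in shMETTL14 cells, a log2 difference of 0.27 (edgeR adjusted p = 0.0186). Neither METTL4 nor YTHDF1 passed against shCTR in either knockdown. Without shMETTL14 library 1, METTL4 was at 0.35 (edgeR adjusted p = 0.0731) and YTHDF1 at 0.19 (0.315), and both calls were also lost without shMETTL3 library 2 (0.0573 and 0.153), YTHDF1 without shMETTL3 library 1 too (0.0949).

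**Figure D5:**
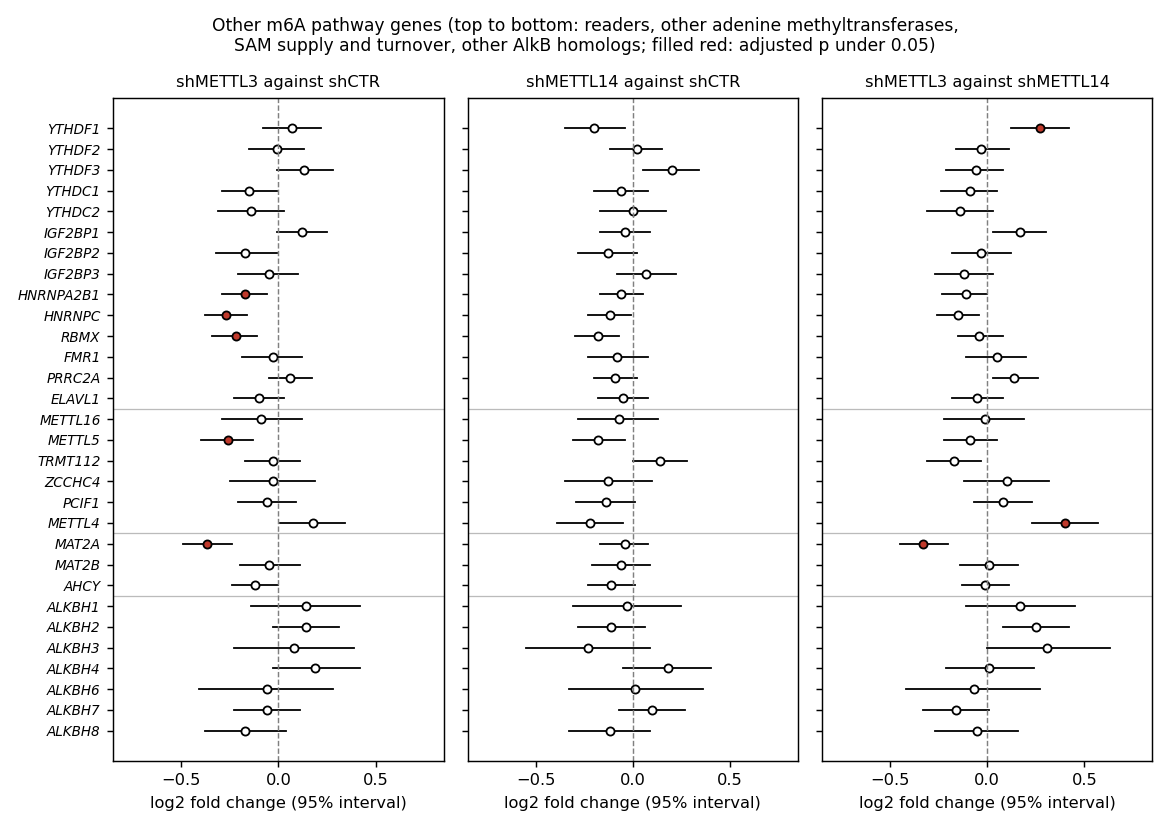
Log2 fold changes (x axis) of 30 other m6A pathway genes in the 3 comparisons, with 95% intervals from edgeR's fit; filled red points have an adjusted p under 0.05. The filled points are 5 in shMETTL3 against shCTR, all below 0, none in shMETTL14 against shCTR, and 3 between the knockdowns, with MAT2A at -0.37 the lowest filled value.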

How the data were processed

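Oligo(dT)-enriched mRNA of 6 K562 libraries was sequenced by HiSeq. What the authors deposited were raw counts, that is, whole-number reads per gene without normalization; the submitters' processing notes name HTSeq 0.6.1 and hg38, and the aligner, annotation and strand setting are not given in the sources used here. Groups and replicate numbers came from the labels. In R 4.3.3, edgeR 4.0.16 was run on the counts: filterByExpr (minimum count 10, 17686 genes kept), TMM, and the quasi-likelihood test in 1 fit over 6 libraries, two-sided, threshold 0.05 after Benjamini-Hochberg adjustment. Symbols of 56558 identifiers came from a table of gene names and of 497 from GENCODE 29. The 986 identifiers outside the annotation stayed in the totals (0.635% to 0.703% of reads). Replicates differed by more than sampling noise, most in the control (mean chi-square per gene 5.52 in shCTR, 3.1 in shMETTL3 and 2.59 in shMETTL14). The fit used 1 estimate of each gene's spread for all 3 groups. Lengths, exons and transcripts were those of GENCODE 29 on GRCh38. Steps were tested on simulated data. Alternatives were DESeq2 1.42.0, other scalings, no filter, fewer groups, a replicate block, a GC and length correction (mgcv 1.9.3) and leaving out each library, where the lone library of a group was assumed to vary like the other groups. PCR copies were not told apart, so precision covers counting and library spread only. The 10 genes, the 30 other pathway genes, the markers and the tests were chosen with earlier results of these data known. Named were all 10 genes, up to 4 rises and 4 falls past the threshold per comparison among the 30, and the 3 genes most correlated with METTL3 and METTL14; genes with exons shared with the 10 were named after the annotation was read.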

Additional observations from a re-analysis of the deposited data

Results flagged for a closer look

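The response to the hairpins differed between the knockdowns for METTL3 and METTL14, by the direct test of shMETTL3 against shMETTL14 cells. METTL3 was lower in shMETTL3 cells by a log2 difference of -0.73, with 52.5 and 46.7 CPM against 88.1 and 76.4 CPM. METTL14 was higher by 0.89, with 38.3 and 35.4 CPM against 19.1 and 20.6 CPM. Both are the genes the hairpins were made against, as the labels name them. No other gene of the 10 passed that test. Groups of 2 libraries are too small for a search for outlying libraries.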

How the results depend on the processing

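Over 13 alternatives to each of 30 fold changes (390 values), 367 kept their side of the threshold, 15 lost it and 8 gained it. A change of sign with a call in either fit occurred in 0. Values without a call did change sign. With a library left out, VIRMA in shMETTL3 cells ran from -0.16 to 0.09 and FTO in shMETTL14 cells from -0.09 to 0.12. The METTL3 fall in shMETTL3 cells ran from -0.95 to -0.78 with a library left out and from -0.87 to -0.79 otherwise, and the METTL14 fall in shMETTL14 cells from -0.82 to -0.71 and from -0.77 to -0.73. With DESeq2 or no filter, 1 of the 10 genes passed in each knockdown in place of 2, the targeted gene; fitting the compared groups alone gave 1 in shMETTL3 cells, and leaving out a library gave 1 to 3 in shMETTL3 and 1 to 3 in shMETTL14 cells. Among the 30 other pathway genes, the GC and length correction gave 8 in shMETTL3 cells, 3 in shMETTL14 cells and 5 between the knockdowns; between the knockdowns library size alone gave 6 and the compared groups alone 8; in shMETTL14 cells RLE factors and DESeq2 gave 1. Leaving out a library gave 2 to 8, 0 to 3 (3 without shCTR library 2) and 1 to 8 (1 without shMETTL3 library 2 or shMETTL14 library 1, 8 without either shCTR library). RBMX and METTL5 lost their calls in shMETTL3 cells without either shMETTL3 library, HNRNPA2B1 also without shCTR library 1 and with library size alone or the GC and length correction. Over all genes DESeq2 called 1881, 763 and 1327, and no filter 766 in shMETTL14 cells; leaving out a library gave 1102 to 3569, 341 to 1913 and 942 to 2953. The cause of these shifts was not tested. The replicate number as a block gave 1 of the 30 genes in shMETTL14 cells and 6 between the knockdowns. Over all genes, the block gave 3264 calls in place of 2912 in shMETTL3 cells and 1459 in place of 1184 in shMETTL14 cells. Deviations of same-numbered libraries had correlations of 0.0614, 0.00511 and -0.02 over 17686 genes. These weigh genes with few reads as much as others, so they cannot decide whether the numbers pair the samples.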
